A study of Mus musculus with 10 samples.

Results

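The small leucine-rich proteoglycans (SLRPs) of the dermis were followed in skin of Tsk2 mice at 1 and 4 months of age. The members were the 9 genes Dcn, Bgn, Aspn, Lum, Fmod, Prelp, Omd, Ogn and Podn, taken by gene symbol from the platform annotation. They are 9 of the 19532 genes with a probe of 1 symbol, and 12 of the 41174 probes. The test needed values in 3 or more samples at both ages, which 8 of the 9 members had. Podn did not.

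All skin carried the Tsk2 genotype, and the titles call the mice transgenic. Tsk2 is a tight-skin mutation of Col3a1 used as a mouse model of scleroderma. Age was the contrast, with 4 skin samples at 1 month and 4 at 4 months, and wild-type skin was not analysed here. Each array carried skin RNA in Cy3 and a reference RNA called UMR in Cy5. The 10 arrays cover 8 samples because 1-month sample 1 and 4-month sample 2 were each run on 2 arrays, which were averaged. The titles also carry ID numbers, each with a suffix. Samples 1 and 2 at 1 month share a number, as do samples 3 and 4, and at 4 months samples 2 and 3 share a number. No number occurs at both ages, so age and any other difference between the numbers cannot be told apart.

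SLRPs are secreted proteins with a core of leucine-rich repeats, and several members carry glycosaminoglycan chains. They bind collagen fibrils, set fibril spacing and width, and hold growth factors such as TGF-beta in the matrix. In skin they are made mainly by dermal fibroblasts, and mice without decorin or lumican have fragile skin. By sequence, Dcn, Bgn and Aspn form class I, Lum, Fmod, Prelp and Omd class II, Ogn belongs to class III and Podn to class V.

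Several members lie side by side on their chromosomes. In the RefSeq table Dcn and Lum are neighbours on chromosome 10, Prelp and Fmod on chromosome 1, and Aspn, Omd and Ogn follow each other on chromosome 13 after their relative Ecm2. Bgn is on chromosome X and Podn on chromosome 4. The 250 bases before the start of the chromosome 13 genes are shown, because these 3 neighbours all had a lower mean at 4 months. None of the 3 passed the test of age, and 6 of the 8 members tested had a difference below 0. Dcn and Lum were also lower, but no promoter window was available for them. They are RefSeq sequences of build GRCm38.p6, plus strand, at chr13:49544193-49544442 for Aspn, chr13:49582212-49582461 for Omd and chr13:49607765-49608014 for Ogn. Capitals mark matches to the motifs searched on both strands.

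Aspn: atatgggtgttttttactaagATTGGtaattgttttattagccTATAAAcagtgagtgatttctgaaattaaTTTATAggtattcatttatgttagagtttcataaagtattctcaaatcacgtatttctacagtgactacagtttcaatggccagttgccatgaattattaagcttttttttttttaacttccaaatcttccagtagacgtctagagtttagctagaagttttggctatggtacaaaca
Omd: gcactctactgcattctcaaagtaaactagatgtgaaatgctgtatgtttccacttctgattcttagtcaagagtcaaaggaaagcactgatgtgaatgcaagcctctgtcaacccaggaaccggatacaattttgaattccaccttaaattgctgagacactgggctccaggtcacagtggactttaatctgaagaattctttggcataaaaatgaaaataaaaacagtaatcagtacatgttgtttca
Ogn: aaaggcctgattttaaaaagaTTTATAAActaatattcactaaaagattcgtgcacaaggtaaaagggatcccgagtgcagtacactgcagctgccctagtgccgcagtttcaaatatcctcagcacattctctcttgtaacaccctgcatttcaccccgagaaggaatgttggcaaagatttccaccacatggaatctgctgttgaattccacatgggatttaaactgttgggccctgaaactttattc

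The TATA box letters TATAAA occurred in the windows of Aspn (2 matches) and Ogn (2 overlapping matches on opposite strands) and not in that of Omd. Of 32851 windows of the same length in the table, 12.4% held them. The CCAAT letters occurred in the window of Aspn (1 match) and in 33.8% of all windows. The GC box GGGCGG (32.7% of all windows), the AP-1 letters TGANTCA (6.75%) and the Smad letters CAGAC (42.2%) had 0 matches in these 3 windows. A match describes the letters only.

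Values are the authors' log2 ratios with the sign reversed, after which a ratio above 0 stands for more signal in skin than in the reference. An exact 0 was read as not measured. The table does not state the numerator, and the direction is likely rather than stated. It rests on the dyes of the labels and on the keratinocyte markers, whose median was 3.70 to 5.79 on all 10 arrays, against -4.38 to -0.32 for B cell markers. With the other direction every difference would change sign. The 2 arrays of a sample correlated at 0.901 and 0.910 across probes, and their median difference in size was 0.337 and 0.324. Measured probes numbered 21665 to 30425 per array. The number of arrays limits the precision, and the labels do not tell whether each sample is its own animal, so the p-values reflect only how much these samples varied, which may be technical.

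No member passed the test of age. In limma, 0 of the 8 members tested had an adjusted p under 0.05, against 7.25% of the 13501 genes tested. Higher calls made up 4.19% of all genes and lower calls 3.06%. The median difference of the 8 members (4 months minus 1 month) was -0.66, and that of all genes was 0.03. Of the members 6 had a difference below 0 and 2 above it, while 47.7% of all genes were below 0. Unadjusted p-values were under 0.05 for 2 members, Omd and Bgn, and for 24.3% of all genes. The ages overlapped in each of the 8 members, and 21.1% of all genes had ages that did not overlap. In whole skin, fewer cells of a type and less RNA per cell cannot be told apart.

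**Figure D1:**
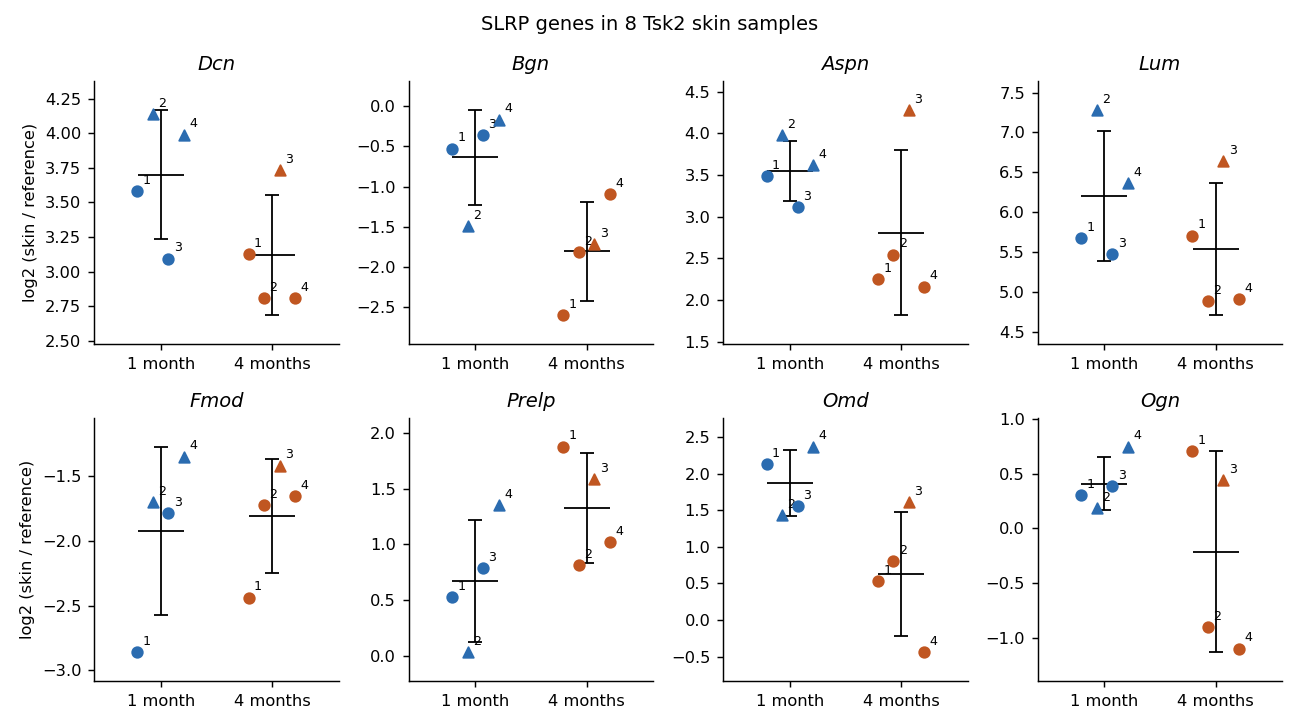
Log2 ratio of skin over reference for the 8 members tested, at 1 month (blue) and 4 months (orange), with the sample number beside each point. Triangles are samples with ID suffix 2, bars give mean ± SD of 4 samples, and in each panel the ages overlap.

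Decorin, encoded by Dcn, is the main dermatan sulfate proteoglycan of dermis and binds type I collagen and TGF-beta. Its log2 ratio was 3.58, 4.14, 3.09 and 3.99 in 1-month samples 1 to 4 and 3.12, 2.81, 3.73 and 2.81 in 4-month samples 1 to 4. Skin was above the reference in all 8 samples. Within the 1-month range lay 4-month samples 1 and 3, and within the 4-month range lay 1-month samples 1 and 3. The age means were 3.70 ± 0.47 and 3.12 ± 0.44 (SD, n = 4 per age). The fitted difference was -0.60 ± 0.37 (SE, 95% interval -1.43 to 0.23, adjusted p = 0.362). It exceeded the SD within each age but did not pass the test, and its interval includes 0. Fitted differences are weighted by ID number and so depart slightly from the plain difference of means. The second Dcn probe was measured in 3 samples at 1 month and 2 at 4 months and was not tested.

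Biglycan, encoded by Bgn, is the closest relative of decorin and also acts as a ligand of Toll-like receptors. Its ratios were -0.53, -1.49, -0.36 and -0.17 at 1 month and -2.60, -1.81, -1.72 and -1.09 at 4 months. On this average of 2 probes skin lay below the reference in every sample, and only 1-month sample 2 reached the 4-month range. The means were -0.64 ± 0.59 and -1.80 ± 0.62 (SD, n = 4 per age), with a difference of -1.17 ± 0.42 (SE, 95% interval -2.12 to -0.23). The unadjusted p was 0.02 and the adjusted p = 0.123, and a two-sided exact permutation test gave p = 0.0571, where 0.0286 is the smallest it allows. That permutation test treats the 8 samples as independent and takes no account of shared ID numbers.

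The Bgn value averages 2 probes. Probe A_52_P162486 gave -1.60, -2.91, -1.35 and -0.33 at 1 month and -2.83, -2.75, -2.56 and -2.21 at 4 months, a difference of -1.03 (adjusted p = 0.268). Its 95% interval was -2.18 to 0.12 (unadjusted p = 0.0729 in limma). On this probe 1-month sample 2 was the lowest of all samples. Probe A_52_P19711 read 0.55, -0.08, 0.63 and -0.004 at 1 month and -2.37, -0.88 and 0.03 in 4-month samples 1, 2 and 4, a difference of -1.35 (adjusted p = 0.187). On it 1-month samples 1 and 3 and 4-month sample 4 lay above the reference, and 4-month sample 4 lay within the 1-month range. It was listed at 0 in 4-month sample 3, where a fit of probes and samples supplied the value, and on 7 of its 8 measured arrays it held a value common to at least 100 probes of that array.

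Asporin, encoded by Aspn, competes with decorin for collagen and restrains TGF-beta. Its ratios were 3.49, 3.98, 3.11 and 3.62 at 1 month and 2.26, 2.55, 4.28 and 2.16 at 4 months. Of the 4-month samples 3 lay below every 1-month sample, and sample 3 lay above them all. The difference was -0.82 ± 0.53 (SE, 95% interval -2.01 to 0.37, adjusted p = 0.388). Without 4-month sample 3 it was -1.23 (adjusted p = 0.0615). That sample was singled out after its value was seen, so this fit is no test of age. Over the fits that each left out 1 sample, the Aspn difference ranged from -1.23 to -0.56.

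Lumican, encoded by Lum, regulates the width of collagen fibrils in skin and cornea. It showed 5.67, 7.28, 5.47 and 6.36 at 1 month and 5.71, 4.88, 6.63 and 4.90 at 4 months. All samples stood well above the reference. The highest values were in 1-month sample 2 and 4-month sample 3. The means were 6.20 ± 0.82 and 5.53 ± 0.83 (SD, n = 4 per age), and the difference of -0.70 ± 0.61 had a 95% interval of -2.07 to 0.68 (adjusted p = 0.54). Repeat arrays of 1-month sample 1 read 6.11 and 5.23 for Lum, a gap of 0.88 within a single skin sample.

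Fibromodulin, encoded by Fmod, guides collagen cross-linking and is abundant in tendon. Its ratios were -2.86, -1.70, -1.78 and -1.35 at 1 month and -2.44, -1.72, -1.42 and -1.65 at 4 months. Skin was below the reference throughout, and the 4-month range lay within the 1-month range. The difference was 0.08 ± 0.41 (SE, 95% interval -0.83 to 0.99, adjusted p = 0.929).

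Prelp encodes a proline- and arginine-rich protein that links basement membranes to collagen. Its ratios were 0.52, 0.03, 0.79 and 1.35 at 1 month and 1.88, 0.81, 1.58 and 1.02 at 4 months. Prelp was the member with the highest difference, 0.67 ± 0.38 (SE, 95% interval -0.18 to 1.52, adjusted p = 0.321), and it did not pass. Its probes differed. Probe A_52_P486260 read 1.51, 0.91, 1.28 and 2.08 at 1 month and 2.51, 1.69, 2.46 and 2.56 at 4 months, a difference of 0.89 (unadjusted p = 0.0333, adjusted p = 0.176). Probe A_51_P439846 gave 0.13 (adjusted p = 0.917), was listed at 0 in 1-month sample 2 and 4-month sample 3, and held a value common to at least 100 probes on each of the 6 arrays that measured it.

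Osteomodulin, encoded by Omd, is a keratan sulfate SLRP known from mineralized tissue, where it binds bone mineral. Its ratios were 2.13, 1.44, 1.55 and 2.37 at 1 month and 0.53, 0.80, 1.61 and -0.44 at 4 months. Only 4-month sample 3 entered the 1-month range, and 4-month sample 4 was the single sample below the reference. The means were 1.87 ± 0.45 and 0.63 ± 0.85 (SD, n = 4 per age). The difference of -1.32 ± 0.47 was the largest in size among the members (SE, 95% interval -2.38 to -0.27, unadjusted p = 0.019, adjusted p = 0.12). The two-sided exact permutation test gave p = 0.0857. The repeat arrays of 1-month sample 1 read 2.80 and 1.45, a gap of 1.35 that is about as large as this difference, and the second array of 4-month sample 2 listed the probe at 0.

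Osteoglycin, also called mimecan and encoded by Ogn, is a SLRP of connective tissue that regulates collagen fibril growth. It read 0.31, 0.18, 0.39 and 0.75 at 1 month and 0.71, -0.90, 0.44 and -1.10 at 4 months. The 1-month samples lay close together (SD 0.24), and the 4-month samples split into a pair within the 1-month range and a pair below it (SD 0.92). The difference was -0.62 ± 0.48 (SE, 95% interval -1.69 to 0.46, adjusted p = 0.483).

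Podn encodes podocan, a SLRP of vessel wall and kidney. Its single probe was measured in 0 samples at 1 month and in 4-month samples 3 (0.12) and 4 (1.14), and both values were shared by at least 100 probes of their arrays. No statement on age was possible for it.

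**Figure D2:**
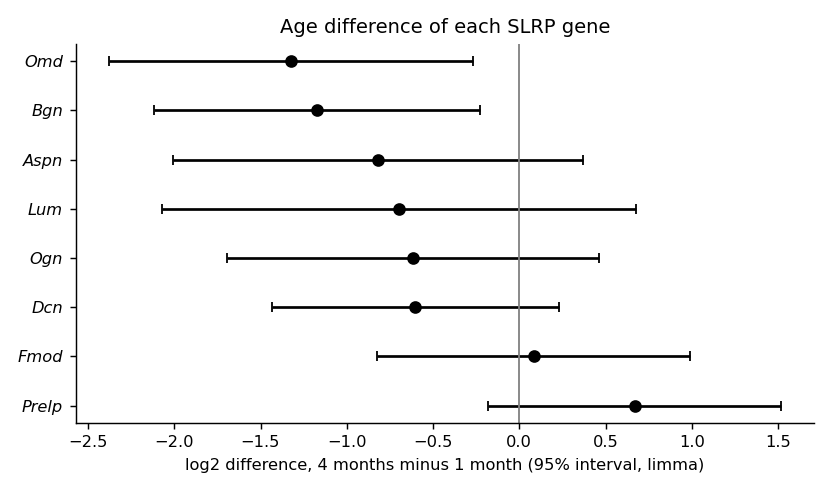
Fitted log2 difference (4 months minus 1 month) of each member with its 95% interval from limma, 4 samples per age. The intervals of Omd and Bgn lie below 0 before adjustment over all genes, and the other 6 include 0. On Bgn probe A_52_P162486 alone the interval is -2.18 to 0.12.

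**Figure D3:**
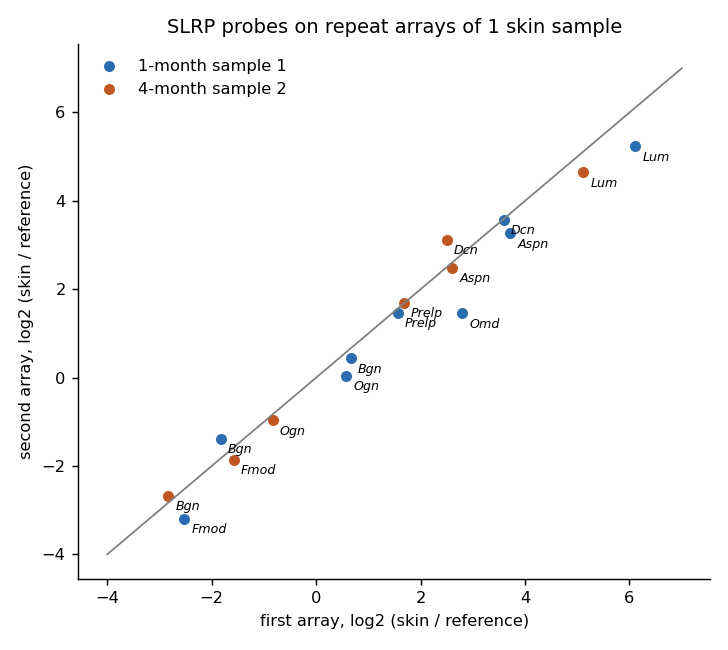
Log2 ratios of member probes on the first array (horizontal) and second array (vertical) of the 2 skin samples run in duplicate, with the line of equality. The widest gap is that of Omd in 1-month sample 1, at 2.80 and 1.45.

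Within each age, Dcn, Lum, Aspn and Fmod were higher in the samples with ID suffix 2, which are 1-month samples 2 and 4 and 4-month sample 3. What the suffix stands for is not given in the labels. With suffix and age in 1 limma fit, suffix 2 exceeded suffix 1 by 1.38 ± 0.25 for Lum (SE, 95% interval 0.82 to 1.94, adjusted p = 0.298), by 1.02 ± 0.28 for Aspn (adjusted p = 0.326) and by 0.78 ± 0.17 for Dcn (adjusted p = 0.316). The value for Fmod was 0.66 ± 0.25 (adjusted p = 0.382). These 4 had an unadjusted p under 0.05, as did 11.6% of all genes. In this contrast 0 members passed, and limma called 0 of the 13501 genes (0%), with 1567 at an unadjusted p under 0.05. The contrast was chosen after the values were seen. With suffix in the fit, the age differences were -0.30 for Lum, -0.55 for Aspn, -0.38 for Dcn and -1.21 for Omd, and none passed.

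The skeletal muscle list, of which 20 of 20 genes were tested, had its highest mean at each age in 1-month sample 2 (5.57) and 4-month sample 3 (6.88), while 1-month sample 4, with the same suffix, was at 4.34. The dermal fibroblast list, with 21 of 22 genes tested, was also highest in these samples, at 1.37 and 1.47. So was the keratinocyte list, at 6.05 in 1-month sample 2 against 4.57 to 4.80 in the other 1-month samples, and the B cell list, of which 2 genes were tested, at -2.34 and -3.00. The part of these lists in the suffix values was not tested.

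**Figure D4:**
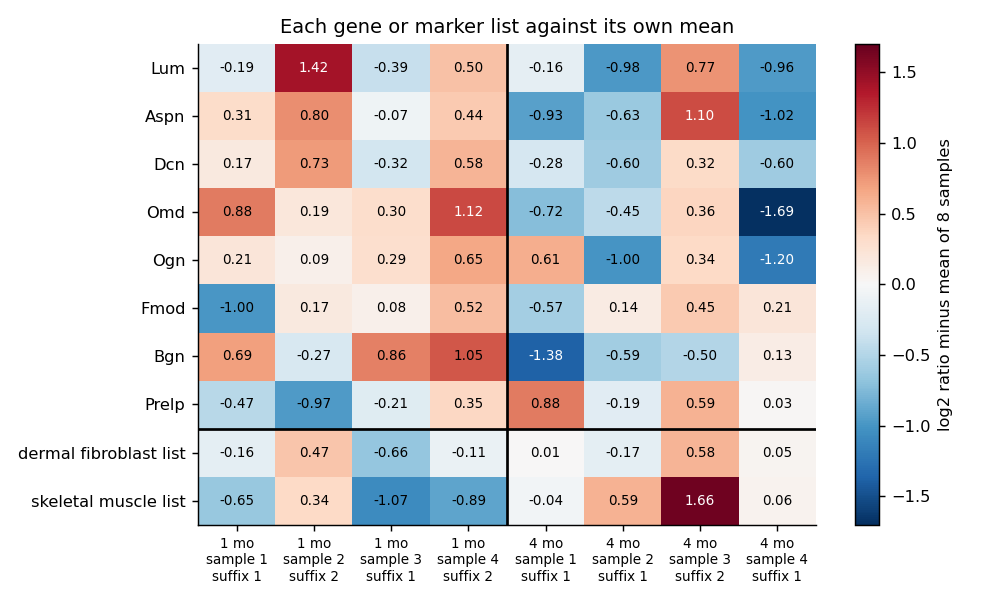
Log2 ratio of each member (rows) in each skin sample (columns) minus its own mean over the 8 samples, with the dermal fibroblast and skeletal muscle marker lists below. Lum, Aspn, Dcn, Fmod, Omd and Ogn are above their means in the 3 samples with suffix 2, and Bgn and Prelp are not in all 3.

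The members did not all follow 1 pattern over the samples. Likeness was measured as the root mean square difference between centred log2 profiles over the 8 samples, which share the age groups, the reference and the arrays. The most alike pairs were Dcn and Lum (0.37), Dcn and Aspn (0.40) and Aspn and Lum (0.44). The least alike were Bgn and Lum (1.12) and Bgn and Prelp (1.12). A chromosomal neighbour was the closest member for some and not for others. Dcn and Lum were closest to each other, Prelp to its neighbour Fmod (0.70) and Omd to its neighbour Aspn (0.54). Aspn, Ogn (0.51) and Fmod (0.63) were closest to Dcn, which is not their neighbour. Omd and Ogn differed by 0.61. Among 10692 genes measured in all 8 samples, whose SD over samples was at least that of Dcn divided by 2, Lum ranked 379 and Aspn 630 in likeness to Dcn, and the closest were Mdm1 (0.14), Fam114a1 (0.15), Colec12 (0.16), Eva1b (0.16) and Snhg18 (0.16). Closest to the mean profile of the 8 members were Colec12 (0.19), Col4a5 (0.20), Snhg18 (0.20), Zfp37 (0.21) and Dvl2 (0.21). None of these 8 genes passed the age test.

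Other tested genes beside members on the chromosome did not pass. Haus7 next to Bgn was at -0.39 (adjusted p = 0.426), Btg2 next to Fmod at -0.26 (adjusted p = 0.679) and Scp2 next to Podn at 0.41 (adjusted p = 0.48). The neighbours Atp2b3, Kera, Optc and Slc1a7 were on the array but not tested, and Gm46240 and Nol8 were not on it. Ecm2, the relative beside Aspn, was not tested either. Its probe A_52_P103101 read 3.66, 3.49, 3.65 and 4.93 at 1 month and 4.18 and 2.70 in 4-month samples 1 and 2, but was listed at 0 in 4-month samples 3 and 4. Of 9 further SLRP family genes 8 were on the array and 3 were tested, of which 0 passed in limma or had an unadjusted p under 0.05. Podnl1, the relative of podocan, lay below the reference, with means of -3.46 ± 0.52 at 1 month and -3.19 ± 0.50 at 4 months (SD of 4 samples; adjusted p = 0.791 in limma), and Chad, a class IV member of cartilage, was at 0.20 (adjusted p = 0.79), with every measured array at a value common to at least 100 probes.

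Among enzymes that build the dermatan and chondroitin sulfate chains of decorin and biglycan, 1 of 20 tested fell and 0 rose, with a list median of 0.22. Csgalnact1, which starts chondroitin chains, read 0.72, -0.03, 1.06 and 1.15 at 1 month and -1.64, -1.05, -1.28 and -0.14 at 4 months. Its ages did not overlap, and it fell by 1.73 (SE 0.41, adjusted p = 0.0356). The call did not hold in all fits, as given below, and was lost on means per ID number (adjusted p = 0.152 in limma). Chst7, a chondroitin sulfotransferase gene, was at 1.22 (adjusted p = 0.0632) and Csgalnact2 at 0.94 (adjusted p = 0.183). Of 7 tested keratan sulfate enzymes, the chain type of lumican and fibromodulin, 0 passed and 0 had an unadjusted p under 0.05 in limma. B4galt4 was at -0.53 (adjusted p = 0.417) and B3gnt2 at -0.51 (adjusted p = 0.439).

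Of 7 proteases that cut SLRPs or their precursors, 0 passed in limma and 0 had an unadjusted p under 0.05. Bmp1, which trims the biglycan and osteoglycin precursors, was at -0.55 (adjusted p = 0.227), and Mmp3, a stromelysin that degrades decorin, at 1.34 (adjusted p = 0.227). Among 21 receptors and ligands bound by SLRPs 1 rose and 1 fell, and the median was 0.11. Tgfb3, a TGF-beta ligand, read -1.21, -0.56, -1.16 and -0.89 at 1 month and 0.69, 0.90, 0.57 and -0.25 at 4 months, and it rose by 1.39 ± 0.32 (SE, adjusted p = 0.0347). Bmp4, a growth factor of the same superfamily, read 0.79, -0.25, 0.25 and 0.45 at 1 month and -0.96, -1.15, -0.76 and -0.87 at 4 months, and it fell by 1.24 (SE 0.31, adjusted p = 0.0411). Pdgfb was at 0.88 (adjusted p = 0.0917), and Tlr4, a receptor for free biglycan, at 1.34 (adjusted p = 0.103). Leaving out 1-month sample 1, or any of 4-month samples 1, 2 and 3, ended the calls of Csgalnact1, Tgfb3 and Bmp4, whose adjusted p was then 0.0717 to 0.145. On means per ID number the adjusted p was 0.152 for Csgalnact1, 0.143 for Tgfb3 and 0.0952 for Bmp4, and with the suffix in the fit it was 0.0508, 0.0511 and 0.0746 in the same order. None of these passed.

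The collagens that SLRPs bind had 9 of 10 tested members below 0 and a median of -0.71, beside -0.66 for the SLRPs themselves. None of the 10 passed, and 3 had an unadjusted p under 0.05. Col1a2, a chain of type I collagen, was at -1.65 (adjusted p = 0.0984). Col5a2, a chain of the collagen that starts fibrils, had means of 0.37 ± 0.44 at 1 month and -0.66 ± 0.45 at 4 months (SD of 4 samples; adjusted p = 0.12). Col3a1, the gene mutated in Tsk2, read 1.18, 1.84, 1.90 and 3.29 at 1 month and -0.19, -0.35, 1.45 and 0.80 at 4 months, a difference of -1.64 (adjusted p = 0.138). Of 9 other proteoglycan and hyaluronan genes 0 passed (1 at an unadjusted p under 0.05). The large proteoglycan gene Vcan was at -0.89 (adjusted p = 0.205) and the hyaluronan synthase gene Has2 at 0.87 (adjusted p = 0.236).

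**Figure D5:**
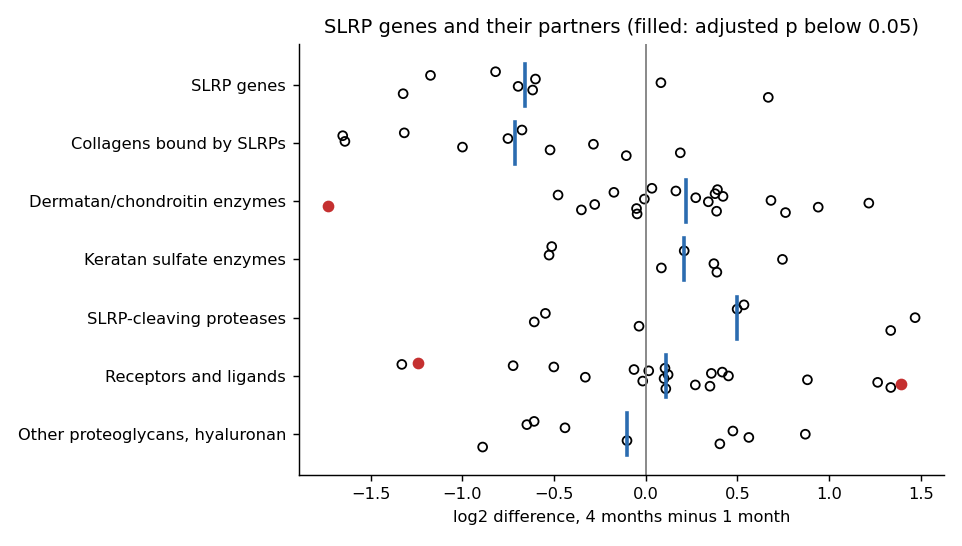
Log2 difference (4 months minus 1 month) of each tested gene, by list. Open circles did not pass the test, filled circles had an adjusted p under 0.05, and blue bars are list medians, -0.66 for the SLRP genes and -0.71 for the collagens.

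Markers of other cell types were examined for age in the same fit. On means per ID number limma called 0 of the 13501 genes, with 2530 at an unadjusted p under 0.05, so the calls given next were lost there. Of 21 dermal fibroblast genes 15 were above 0 and 6 below, and 1 rose, the actin-severing protein gene Gsn (1.85, adjusted p = 0.0328). At 1 month the fibroblast list mean spanned 0.23 to 1.37, and at 4 months it spanned 0.73 to 1.47. The muscle list had 18 of 20 genes above 0, and 4 rose, with list means of 4.16 to 5.57 and 5.19 to 6.88. Hair follicle genes were below 0 in 10 of 10, and 3 fell, with list means of 3.16 to 4.01 and 0.41 to 2.24. Macrophage genes were above 0 in 8 of 9 tested with 0 past the limma test and 5 at an unadjusted p under 0.05. Of the tendon list, whose cells also make SLRPs, 5 of 7 genes were tested and 0 passed (3 at an unadjusted p under 0.05). These 3 differed in direction, with Scx at 0.89 and Thbs4 at 1.36 but Mkx at -1.07. The defining tendon marker Tnmd was not measured in enough samples. Of the cartilage list only Col2a1 was tested. With the fibroblast list mean subtracted in each sample, 0 members passed, and Omd was at -1.49 (adjusted p = 0.0534). The fibroblast list mean was 0.78 at 1 month and 1.01 at 4 months, so subtracting it in itself lowers the age differences. With the muscle list as a covariate 0 members passed, with Lum at -1.91 (adjusted p = 0.0988) and Aspn at -1.90 (adjusted p = 0.0604). The muscle list mean itself was 4.66 at 1 month and 5.79 at 4 months. Age and this covariate are therefore only partly separable, and these values should not be read as larger age differences.

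The members' result depended on 1-month sample 2 and 4-month sample 3, a pair chosen from earlier results of these data. The former was the lowest 1-month sample for Bgn and Omd, and the latter the highest 4-month sample for Aspn and Omd. Leaving both out removed the overlap of the ages in these genes. The calls made without them therefore cannot serve as a test of age. By Dixon's test, 0 of the 16 groups of member values held an outlier (the highest ratio of gap to range, 0.819, was just under the critical value). Without both samples, and with the ID correlation of the full fit, Aspn was at -1.09 (adjusted p = 0.0483) and Omd at -1.73 (adjusted p = 0.0485). Both then fell, and Bgn, at -1.47, did not pass (adjusted p = 0.0643). Over all genes, 831 of 12739 passed in that fit. Without both samples and without the ID block, 3 members fell, Aspn (-1.09), Bgn (-1.48, adjusted p = 0.0478) and Omd (-1.72). There 1223 of 12739 genes passed. Leaving out any single sample left 0 members past the test.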

How the data were processed

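The deposited table holds log2 ratios of the 2 dyes of each array, made by the authors. Per the labels' protocols, labelling used an Agilent Quick-Amp kit and 200 ng of skin RNA. For background correction, normalization, scanner software and numerator no sources used here give the method, and base 2 is likely from the values. The sign was turned, exact zeros (26.1% to 47.4% of an array) were read as not measured, and the arrays of a sample were averaged. Of the 41174 probes, 32664 had 1 gene symbol and were used. Probes of a gene were averaged, and an additive fit over probes and samples filled a probe's missing samples. Probes and genes needed a value in 3 samples of each age. Ages were compared across all 13501 such genes with limma 3.58.1 (lmFit, eBayes, duplicateCorrelation with statmod 1.5.0) in R 4.3.3, with the ID number as a random block (consensus correlation 0.313), Benjamini-Hochberg adjustment over all genes and a threshold of 0.05. The fit was tested on simulated data in 2 draws. False calls exceeded the share that the threshold allows, clearly in the first and barely in the second, and the limit for passing this test was widened after the first, so adjusted p-values close to the threshold may be too small.

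The members and lists were chosen with earlier results of these data known. Named genes were all members, their tested chromosomal neighbours, Col3a1, the genes most like Dcn or the member mean, and of each partner list those past the test (up to 4 per direction) and the 2 others with the smallest p. Lists are described by counts and medians and were not tested as lists. Alternatives changed the block, suffix term, zeros, scaling, probe summary, filter, repeat arrays, tissue covariates and samples. Leaving out values shared by 100 or more probes, and fixing the ID correlation without 2 samples, were chosen after seeing the data. Sequences are RefSeq's, and the promoter table used here matched 7 of the 9 members.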

Additional observations from a re-analysis of the deposited data

How the results depend on the processing

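Under the alternatives tried, 0 members passed in each, except without 1-month sample 2 and 4-month sample 3. There 3 passed with no random ID block (1223 of 12739 genes) and 2 with the ID correlation of all samples (831 of 12739 genes). Differences ranged from -1.21 to -0.19 for Dcn, -1.48 to -0.87 for Bgn, -1.90 to -0.55 for Aspn, -1.91 to -0.30 for Lum, 0.13 to 1.08 for Prelp, -1.73 to -0.91 for Omd and -0.98 to -0.29 for Ogn, with no change of sign. Fmod changed sign with the muscle covariate (-0.38), with the fibroblast list subtracted (-0.12) and among the left-out samples (-0.24 to 0.32). The cause was not tested. Podn could be fitted only with zeros kept (0.35, adjusted p = 0.638). Calls over all genes numbered 979, but 2022 with no random ID block, 0 in limma on means per ID number (2530 at an unadjusted p under 0.05), 581 with the suffix in the fit, 119 with the muscle covariate and 157 to 2172 without 1 sample. The calls of Csgalnact1, Tgfb3 and Bmp4 were also lost on means per ID number, with the suffix in the fit, with zeros kept and with the muscle covariate (adjusted p from 0.0508 to 0.208). With the fibroblast list subtracted Tgfb3 lost its call (1.19, adjusted p = 0.0791) and Col3a1 passed (-1.86, adjusted p = 0.0231). No paired analysis was possible because no ID number occurred at both ages. Without 2 samples, 1 pair of samples of 1 number remained, from which no ID correlation could be estimated.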

Other observations

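Many deposited values were shared by many probes of the same array. Of the measured values of an array, 27.2% to 37.1% were held, to 3 decimals, by at least 100 probes. Of the 12 member probes, the second probes of Dcn and Prelp and the probe of Podn held such values on every array that measured them, and Bgn probe A_52_P19711 on 7 of 8. The Bgn and Prelp gene values each average such a probe with one that held none. With these values left out, Bgn was at -1.03 (adjusted p = 0.245), Prelp at 0.90 (adjusted p = 0.153) and Omd at -1.34 (adjusted p = 0.106).

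The exact zeros were not confined to probes with small ratios. Ecm2 probe A_52_P103101, between 3.49 and 4.93 in the 1-month samples, was listed at 0 in 4-month samples 3 and 4, and the 2 arrays of 4-month sample 2 read 3.58 and 1.81. Podnl1, listed beside the other SLRP relatives, held values between -3.85 and -2.64 in all 8 samples.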
